A study of Homo sapiens with 31 samples.

Results

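Palbociclib was compared with its vehicle 24 h after starved MCF10A cells were released, the latest time of a series on cell cycle entry. MCF10A, an untransformed line from human breast epithelium, stops dividing when growth factors are withdrawn. The comparison holds 4 of the 31 libraries of the series: replicates 1 and 3 titled 24h CDK4/6i, and replicates 1 and 3 titled 24h DMSO. Cells of every group had first been kept for 2 to 3 days without horse serum, EGF and insulin. The palbociclib cells were then given full growth medium with 1 µM palbociclib for 24 h, and the DMSO cells full growth medium with 0.1% DMSO for 24 h. The 15 h groups, 3 libraries with palbociclib and 3 with DMSO, were used to ask what differs at the later time.

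Palbociclib blocks the kinases CDK4 and CDK6, which D-type cyclins activate early in the cell cycle. They phosphorylate the retinoblastoma protein, which otherwise holds E2F transcription factors inactive, and E2F factors drive genes for DNA replication and for cyclin E and cyclin A. Genes of mitosis are held off in resting cells by the DREAM complex, which binds CHR elements in their promoters, and are later driven by B-Myb and FOXM1. CCAAT boxes in the same promoters are bound by NF-Y, an activator. The replication and the mitotic genes therefore stand at different steps of the same pathway.

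The promoters of 4 genes from both steps show the elements in question, and their transcripts are followed in the results: E2F1, which encodes an E2F factor, DTL, a ubiquitin ligase adaptor of S phase, PLK1, a mitotic kinase, and CDC20, an activator of the anaphase-promoting complex. Each sequence is the 150 bases before the RefSeq start of the gene in GRCh38.p14, at chr20:33686386-33686535 on the minus strand for E2F1, chr1:212035598-212035747 on the plus strand for DTL, chr16:23678739-23678888 on the plus strand for PLK1 and chr1:43358831-43358980 on the plus strand for CDC20. Capitals mark matches, on either strand, to the E2F letters TTTCCCGC, TTTCGCGC, TTTGCCGC and TTTGGCGC, to the CHR letters TTTGAA and TTCGAA, and to CCAAT.
E2F1: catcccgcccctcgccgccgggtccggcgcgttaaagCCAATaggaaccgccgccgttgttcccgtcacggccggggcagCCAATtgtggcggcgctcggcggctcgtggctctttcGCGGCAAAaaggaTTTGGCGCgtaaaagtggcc
DTL: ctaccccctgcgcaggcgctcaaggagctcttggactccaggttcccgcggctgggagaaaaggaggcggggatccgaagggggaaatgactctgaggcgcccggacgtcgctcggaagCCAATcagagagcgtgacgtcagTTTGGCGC
PLK1: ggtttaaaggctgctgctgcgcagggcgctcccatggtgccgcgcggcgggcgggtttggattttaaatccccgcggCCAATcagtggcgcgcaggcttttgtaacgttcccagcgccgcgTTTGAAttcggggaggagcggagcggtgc
CDC20: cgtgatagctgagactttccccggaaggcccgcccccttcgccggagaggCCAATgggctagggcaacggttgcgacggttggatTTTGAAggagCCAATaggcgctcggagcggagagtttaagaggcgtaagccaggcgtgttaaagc
E2F1 and DTL carry E2F letters beside CCAAT, whereas PLK1 and CDC20 carry CHR letters beside CCAAT. Across genes the same split was seen in windows of 250 bases before to 50 after the start. Of the origin licensing and replication fork genes, 50 of 59 had a RefSeq promoter, and 42.0% of those held E2F letters against 4.0% with CHR letters. Of the mitotic kinesin, centromere and spindle genes, 55 of 63 had one, and 10.9% held E2F letters, 72.7% CHR letters and 58.2% both CHR and CCAAT. Among the 11114 promoters of genes tested here, 5.27% held E2F letters, 11.5% CHR letters and 4.76% both CHR and CCAAT. Among all 27305 promoters of the table, 3.33% held E2F letters, 16.6% CHR letters and 6.58% both CHR and CCAAT. Letters of different elements overlapped in 39 promoters, 0.143% of all.

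Gene counts in the 4 libraries summed to between 10342358 and 19390645, and mitochondrial transcripts took 2.48% to 3.541% of them. Levels are given as CPM, read counts relative to the library total after scaling by trimmed mean of M values (TMM) factors. CPM values are therefore relative levels in the mRNA sequenced, not absolute amounts. In bulk RNA, fewer cells holding a transcript and less of it per cell cannot be told apart. Differences are log2 fold changes of palbociclib over DMSO with their standard error (SE), where 1 unit is a 2-fold difference. Where ± follows a level in CPM, it is instead the standard deviation (SD) over the libraries of that group. A gene rose or fell where edgeR's adjusted p was below 0.05. The labels do not say that replicates were separate cultures, so these tests measure only the spread between libraries, which may be technical. With 2 libraries against 2, an exact permutation test of a single gene cannot go below p = 0.333, so the spread was estimated over all 31 libraries. Of 15787 genes tested, 910 (5.76%) rose and 1937 (12.3%) fell. By at least 2-fold, 90 (0.57%) rose and 508 (3.22%) fell. The count of rises became 549 without palbociclib replicate 1, 479 without DMSO replicate 1 and 483 without DMSO replicate 3, and the 90 became 30, 77 and 51 without those libraries and 217 without palbociclib replicate 3. The palbociclib and DMSO libraries did not overlap for 54% of all genes tested, which is the background for such statements on genes not called. Among called genes they did not overlap for 908 of the 910 rises and all 1937 falls. Statements below that the groups were apart therefore add little for a gene that was called.

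Genes of the cell division machinery were almost all lower with palbociclib at 24 h, from the first regulators of S phase to the proteins of chromosome segregation. Of 272 tested genes in 14 cell cycle lists, 251 fell and 2 rose, where 12.3% of all genes tested fell and 5.76% rose. The 272 had a median log2 difference of −2.43, against a median of 0.02 over all genes tested. Their summed level was 7837 and 7915 CPM in the palbociclib libraries, against 29080 and 28290 CPM in the DMSO libraries. The falls reached at least 2-fold in 217 of them, which made up 42.7% of all 508 genes that fell this far. Of the 93 genes that fell by at least 16-fold, 72 were in these lists. The count of 251 did not move by more than 1.5 times in any of the alternatives tried. Beside the counts of each cell cycle list below stand the same 5.76% rises and 12.3% falls over all genes tested.

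**Figure D1:**
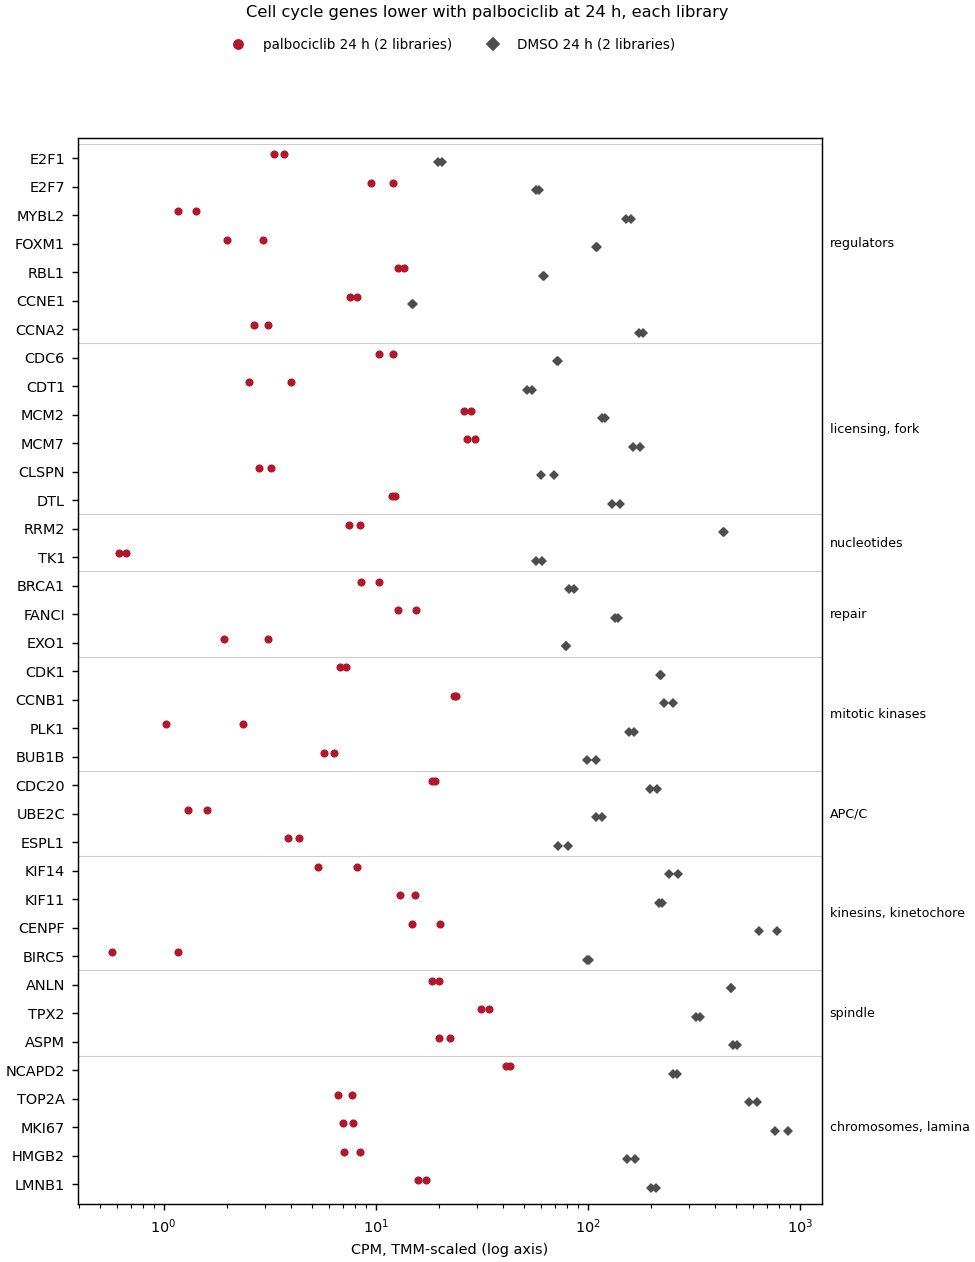
Levels of cell cycle genes 24 h after release in each library, in TMM-scaled CPM on a log axis. Red circles are the 2 palbociclib libraries, drawn above the grey diamonds of the 2 DMSO libraries, and genes are grouped by role. For all genes shown both circles lie left of both diamonds, with E2F1 and CCNE1 among the narrower gaps and MYBL2, MKI67 and BIRC5 among the wider ones.

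The kinase system that palbociclib targets moved in both directions. CCND1, which encodes cyclin D1 (chromosome 11, 69641087 to 69654474 in the files' GRCh38.p7), stood at 557 and 601 CPM with palbociclib, against 441 and 432 CPM with DMSO, a rise of 0.41 ± 0.12 (adjusted p = 0.0134). CCND2, which encodes cyclin D2, stood at 298 and 236 CPM with palbociclib, against 152 and 120.3 CPM with DMSO, a rise of 0.97 ± 0.25. For both D cyclins the lower palbociclib library was above the higher DMSO library. These were the 2 rises among 14 tested members of the list of D cyclins, their kinases, pocket proteins and CDK inhibitors. Of the 14, 8 fell (median −0.47), where 5.76% of all genes tested rose and 12.3% fell. The CCND1 call was lost without palbociclib replicate 3 (0.34), DMSO replicate 1 (0.40) or DMSO replicate 3 (0.41), and that of CCND2 without palbociclib replicate 1 (0.80) or DMSO replicate 3 (0.82). Of the exonic bases of CCND1, 10.3% are shared with another gene. CDK6, which encodes a target kinase, did not pass the test (0.26 ± 0.11, adjusted p = 0.108), nor did the D cyclin gene CCND3 (−0.10 ± 0.08). CDK4, the other target kinase gene, fell by 0.50 ± 0.10, with 43.2% of exonic bases shared.

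Of 9 tested CDK inhibitor and pocket protein genes, 7 fell, where 12.3% of all genes tested fell. CDKN1C and RBL2 did not pass the test. CDKN1B, which encodes p27, a brake on CDK2 (chromosome 12, 12715058 to 12722371), stood at 19.5 and 18.6 CPM with palbociclib, against 35.5 and 36.9 CPM with DMSO, a fall of −0.93 ± 0.12 (adjusted p = 4.37e-07). CDKN1A, which encodes p21, stood at 141 and 157 CPM with palbociclib, against 203.7 and 200 CPM with DMSO (−0.44 ± 0.09). For CDKN1A and CDKN1B each palbociclib library was below either DMSO library. CDKN1C, which encodes p57, the other CIP/KIP inhibitor, stood at 6.15 and 4.94 CPM with palbociclib, against 5.90 and 6.35 CPM with DMSO, and its groups overlapped (−0.17 ± 0.22). Of the INK4 genes, CDKN2C, which encodes p18, fell by 3.20 ± 0.21 on the log2 scale and CDKN2D, which encodes p19, by 1.49 ± 0.24, whereas CDKN2A and CDKN2B had 0 counts in all 4 libraries. CDKN3, a phosphatase gene of CDK1 and CDK2, fell by 4.04 ± 0.25. RB1, which encodes the retinoblastoma protein, stood at 115 and 111 CPM with palbociclib, against 156 and 173 CPM with DMSO (−0.55 ± 0.09), and RBL1, which encodes p107, fell by 2.23 ± 0.10. RBL2, which encodes p130, the pocket protein of resting cells, was at −0.14 ± 0.08, with 18.2% of exonic bases shared.

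Cyclin E and cyclin A genes, which encode the next cyclins of the pathway, fell in 9 of 10 list members (median −1.92), the list also holding CDK2 and its regulators. CCNE1, which encodes cyclin E1, stood at 8.14 and 7.55 CPM with palbociclib, against 15.1 and 14.8 CPM with DMSO (−0.93 ± 0.17). CCNA2, which encodes the cyclin A of S phase and G2, stood at 3.12 and 2.68 CPM with palbociclib, against 183 and 174 CPM with DMSO (−5.95 ± 0.17). Neither gene's groups overlapped, and the gap was far wider for CCNA2. CCNE2 fell by 3.86 ± 0.30, but 37.1% of its exonic bases are shared with another gene. FBXO5, which encodes the APC/C inhibitor EMI1, fell by 3.67 ± 0.18, and CKS1B and CKS2, which encode CDK-binding adaptors, by 1.89 ± 0.11 and 1.94 ± 0.10.

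Among the E2F, DP, MYB and FOXM1 factors, 12 of 18 fell and none rose (median −1.13). E2F1 stood at 3.31 and 3.71 CPM with palbociclib, against 19.8 and 20.7 CPM with DMSO (−2.52 ± 0.17, adjusted p = 2.51e-13). MYBL2, which encodes B-Myb, stood at 1.42 and 1.17 CPM with palbociclib, against 152 and 160 CPM with DMSO (−6.92 ± 0.23). FOXM1, a driver of mitotic genes, stood at 2.94 and 1.99 CPM with palbociclib, against 111 and 109.7 CPM with DMSO (−5.52 ± 0.16, with 15.9% of exonic bases shared). MYBL2 and FOXM1 were thus lower by more than E2F1 was, whereas MYBL1 fell by about as much as E2F1 (−2.50 ± 0.17). E2F7, a repressor that E2F factors induce, fell by 2.44 ± 0.12. The 6 members that did not pass the test were E2F3, E2F4, E2F5, E2F6, TFDP2 and LIN37, among them E2F4, the E2F factor of DREAM (−0.13 ± 0.09). MYC, the growth regulator, stood at 506 and 549 CPM with palbociclib, against 470 and 463 CPM with DMSO, and did not pass the test (0.18 ± 0.13, adjusted p = 0.396).

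Replication genes fell almost as a whole. Of 27 origin licensing and firing genes, 24 fell (median −2.08), and of 32 replication fork genes, 31 fell (median −1.88). MCM2, a subunit of the replicative helicase, stood at 26.0 and 28.2 CPM with palbociclib, against 117 and 120.2 CPM with DMSO (−2.12 ± 0.11). CDC6, which loads the helicase, stood at 12.0 and 10.4 CPM with palbociclib, against 72.2 and 71.8 CPM with DMSO (−2.69 ± 0.14). CDT1, its loading partner, stood at 3.98 and 2.54 CPM with palbociclib, against 54.9 and 51.8 CPM with DMSO (−4.07 ± 0.15). All 3 licensing genes kept some transcript under palbociclib, with gaps between groups that exceeded the differences within them. CDC45, a helicase cofactor, fell by 4.08 ± 0.15, MCM7 by 2.59 ± 0.10 and GINS1 by 2.77 ± 0.11. The 3 licensing genes not past the test were ORC2, ORC4 and ORC5, subunits of the origin recognition complex, at −0.15 ± 0.06, 0.00 ± 0.08 and −0.08 ± 0.09. At the fork, FAM111B, a protease gene, stood at 2.27 and 1.72 CPM with palbociclib, against 77.5 and 83.1 CPM with DMSO (−5.36 ± 0.17). DTL, whose promoter is printed above, stood at 12.3 and 12.0 CPM with palbociclib, against 130.1 and 142 CPM with DMSO (−3.48 ± 0.12). CLSPN, which encodes the checkpoint mediator claspin, fell by 4.43 ± 0.16. The fork member not past the test was POLD2, a subunit of DNA polymerase delta (−0.16 ± 0.09).

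Nucleotide supply and repair followed the same direction. Of 10 deoxynucleotide synthesis genes, 9 fell (median −1.92). RRM2, the regulated subunit of ribonucleotide reductase, stood at 8.43 and 7.48 CPM with palbociclib, against 436 and 440 CPM with DMSO (−5.79 ± 0.15). TK1, which encodes thymidine kinase, stood at 0.663 and 0.618 CPM with palbociclib, against 61.2 and 57.4 CPM with DMSO (−6.52 ± 0.23). RRM1, the other reductase subunit, stood at 51.9 and 54.0 CPM with palbociclib, against 222 and 234 CPM with DMSO (−2.11 ± 0.08). The 2 subunits of the reductase therefore differed in the size of their fall. All 25 genes of homologous recombination and the Fanconi anaemia pathway fell (median −2.51). BRCA1 stood at 10.3 and 8.58 CPM with palbociclib, against 86.0 and 81.4 CPM with DMSO (−3.16 ± 0.10), and the groups did not overlap. EXO1, which encodes an end-resecting nuclease, fell by 5.02 ± 0.18, FANCI by 3.29 ± 0.09 and FANCD2 by 3.27 ± 0.15.

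The lowest list medians were in mitosis. Checkpoint kinases and genes of mitotic entry fell in 23 of 24 (median −3.52), and ATR, an upstream checkpoint kinase, was the one not past the test (−0.03 ± 0.07). CDK1, the mitotic CDK, stood at 6.82 and 7.28 CPM with palbociclib, against 221 and 219 CPM with DMSO (−4.96 ± 0.14). CCNB1, which encodes its partner cyclin B1, stood at 23.4 and 23.9 CPM with palbociclib, against 253 and 229.9 CPM with DMSO (−3.35 ± 0.11). PLK1, whose promoter is printed above, stood at 2.37 and 1.03 CPM with palbociclib, against 166 and 157 CPM with DMSO (−6.65 ± 0.19, with 12.9% of exonic bases shared). PLK1 was the one of these 3 whose palbociclib libraries differed by more than 2-fold, and the gap to DMSO was far wider than that. Of the 10 APC/C activators, inhibitors and securin genes, 9 fell (median −2.40). CDC20 stood at 18.5 and 19.1 CPM with palbociclib, against 214 and 196 CPM with DMSO (−3.44 ± 0.13). UBE2C, a ubiquitin-conjugating enzyme of the complex, fell by 6.29 ± 0.20, and ESPL1, which encodes separase, by 4.23 ± 0.14.

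All 13 mitotic kinesins fell by at least 2-fold (median −4.62), as did 28 of 30 centromere and kinetochore genes, of which 29 fell (median −3.45), and 19 of 20 spindle and cytokinesis genes, of which all 20 fell (median −4.51). KIF20A, a kinesin of the central spindle, stood at 1.23 and 0.961 CPM with palbociclib, against 186 and 173 CPM with DMSO (−7.37 ± 0.21). KIF11, the motor that separates spindle poles, stood at 12.97 and 15.37 CPM with palbociclib, against 224 and 216 CPM with DMSO (−3.94 ± 0.11). Both motors were clear of overlap, and the falls within this family ran from −7.37 to −2.12. CENPA, which encodes the centromeric histone H3, had 5 and 2 counts with palbociclib, against 628 and 718 counts with DMSO (−7.15 ± 0.33). BIRC5, which encodes survivin, fell by 6.77 ± 0.24, HJURP, the CENPA chaperone gene, by 7.15 ± 0.23, and CENPF by 5.38 ± 0.18. TPX2, a spindle assembly factor, stood at 31.5 and 34.3 CPM with palbociclib, against 339 and 323 CPM with DMSO (−3.33 ± 0.09). ANLN, which encodes anillin, fell by 4.63 ± 0.11 and PRC1 by 4.47 ± 0.12. PIF1, a DNA helicase gene outside the lists, had the lowest fitted value of the named genes, with 2 and 0 counts with palbociclib, against 348 and 450 counts with DMSO. Per count sequenced that is a ratio of 0.00332, with an exact 95% counting interval of 0.000402 to 0.012.

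Condensin and cohesin genes fell in all 17 (median −1.39), and chromatin and nuclear envelope genes of cycling cells in all 22 (median −1.96). NCAPD2, a condensin subunit, stood at 41.4 and 42.8 CPM with palbociclib, against 265 and 253 CPM with DMSO (−2.62 ± 0.07). MKI67, which encodes the proliferation marker Ki-67, stood at 7.86 and 7 CPM with palbociclib, against 886 and 769 CPM with DMSO (−6.81 ± 0.20). LMNB1, which encodes lamin B1, stood at 17.2 and 15.9 CPM with palbociclib, against 211 and 199 CPM with DMSO (−3.64 ± 0.09). For all 3 the palbociclib libraries lay close together and far from the DMSO libraries. TOP2A, the topoisomerase that untangles chromosomes, fell by 6.40 ± 0.16 and HMGB2 by 4.36 ± 0.14. Replication-dependent histone genes, whose transcripts mostly lack a poly(A) tail and are poorly sampled here, had 1 rise and 2 falls among 12 tested. The shares over all genes tested were 5.76% rises and 12.3% falls. HIST1H4H fell with 3 and 5 counts with palbociclib, against 33 and 13 with DMSO, and lost its call without DMSO replicate 1 (−1.11). HIST1H3H had 0 and 1 counts with palbociclib, against 6 and 8 with DMSO (ratio 0.0947, interval 0.00224 to 0.623), and lost its call whichever of the 4 libraries was left out. HIST1H2AC rose by 0.53 ± 0.17 and lost its call without palbociclib replicate 3 (0.42) or DMSO replicate 3 (0.41).

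**Figure D2:**
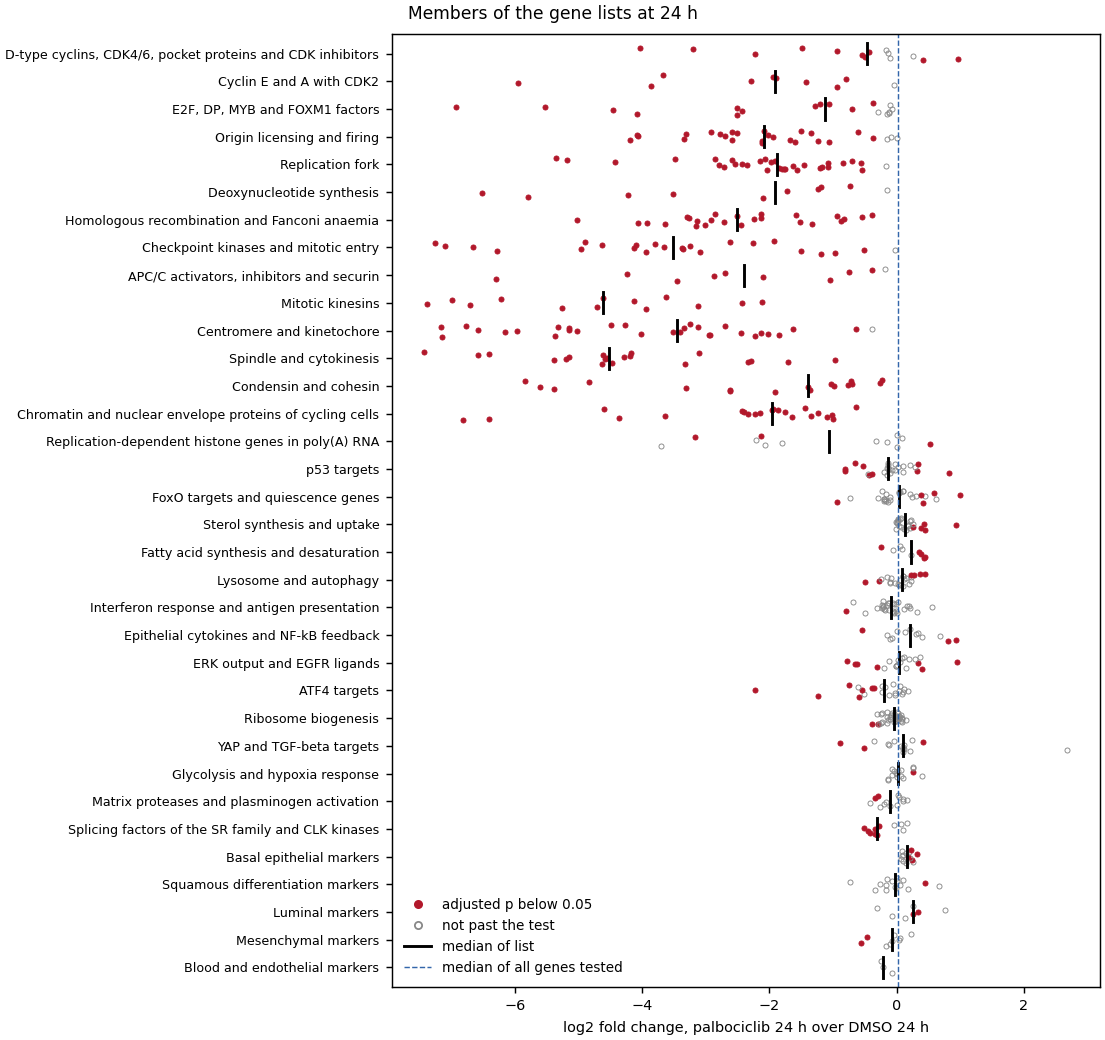
Log2 fold changes at 24 h, palbociclib over DMSO, for every tested member of the 34 gene lists, 1 row a list and 1 point a gene, with vertical spread for legibility only. Red points passed the test, open points did not, black bars are list medians and the dashed line is the median of all genes tested. The 13 rows from cyclin E to chromatin lie almost wholly to the left, with medians from −4.62 to −1.13, whereas the medians of the rows below the histone genes lie between −0.31 and 0.25.

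The 24 h difference was set against the 15 h difference, whose 6 libraries it does not share, with an interaction term. Where the differences at the 2 times were unequal, members of the licensing, fork and repair lists mostly differed from DMSO by less at 24 h, and members of the mitotic lists mostly by more. Over all genes the 24 h and 15 h differences were unequal for 470 (2.98%), with the 24 h value higher for 167 (1.06%) and lower for 303 (1.92%). With palbociclib, 18 genes (0.114%) were higher and 170 (1.08%) lower at 9 h. At 12 h, 131 (0.83%) were higher and 759 (4.81%) lower. By 15 h the rises numbered 340 (2.15%) and the falls 1387 (8.79%). Of the 272 cell cycle genes, 32 had a higher and 74 a lower value at 24 h than at 15 h. Of 27 licensing genes 12 had a higher and 2 a lower value at 24 h, of 32 fork genes 5 and 0, and of 25 repair genes 6 and 0. Of 13 kinesins 0 had a higher and 9 a lower value, of 20 spindle genes 0 and 15, and of 10 APC/C genes 0 and 7. Of 24 checkpoint and mitotic entry genes it was 1 and 8, of 30 centromere genes 1 and 7, of 22 chromatin and envelope genes 3 and 10, and of 10 deoxynucleotide synthesis genes 0 and 3. Among the promoters of those 74, of which 65 had one, 67.7% held CHR letters and 3.08% E2F letters, against 35.2% and 20.9% over all 230 promoters of cell cycle genes. The kinesin, centromere and spindle lists as a whole held them in 72.7% and 10.9% of promoters. List membership and the change between the times therefore cannot be told apart here. Of the 32 genes with a higher value 78.1% had a promoter, too few for a share. The 167 became 67 without palbociclib replicate 1, 83 without DMSO replicate 1 and 75 without DMSO replicate 3, and the 303 became 184 without palbociclib replicate 1. The fork count of 5 became 3 without palbociclib replicate 1 or 3 or DMSO replicate 1, and the repair count of 6 became 3 without palbociclib replicate 1. The licensing count of 2 became 1 without palbociclib replicate 3 or DMSO replicate 1. The centromere counts of 1 and 7 became 0 and 4 without either palbociclib library and 0 and 5 without either DMSO library. The chromatin counts of 3 and 10 became 1 and 9 without palbociclib replicate 1, and the deoxynucleotide count of 3 was 2 without palbociclib replicate 1 or DMSO replicate 3.

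E2F1 was lower by 2.52 ± 0.17 at 24 h and by 5.25 ± 0.16 at 15 h, a change of 2.74 ± 0.28 between the times. Its level at 24 h was 3.31 and 3.71 CPM with palbociclib, against 19.8 and 20.7 CPM with DMSO. At 15 h it was 1.11 ± 0.27 CPM with palbociclib and 41.9 ± 4.9 CPM with DMSO (SD, n = 3 each). Both sides had moved, palbociclib libraries upward and DMSO libraries downward. CDC6 changed by 2.23 ± 0.20 between the times and reached 11.2 ± 1.1 CPM at 24 h with palbociclib (n = 2), against 3.57 ± 0.57 CPM at 15 h with palbociclib (n = 3). MCM2 changed by 1.10 ± 0.14, DTL by 2.14 ± 0.18, EXO1 by 2.01 ± 0.36 and CCNE1 by 1.197 ± 0.23. FAM111B changed by 4.47 ± 0.48 and MCM10, a helicase activator gene, by 3.94 ± 0.42, and both rest at 15 h on few palbociclib counts, 7 and 11 over 3 libraries.

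CCNB1 was lower by 3.35 ± 0.11 at 24 h and by 0.91 ± 0.10 at 15 h, a change of −2.44 ± 0.15. With palbociclib it stood at 23.6 ± 0.35 CPM at 24 h (SD, n = 2) and 12.3 ± 0.53 CPM at 15 h (SD, n = 3). With DMSO it stood at 241 ± 16.3 CPM at 24 h (n = 2) and 23.1 ± 1.55 CPM at 15 h (n = 3). The movement was thus mostly on the DMSO side. PLK1 changed by −3.27 ± 0.38, KIF20A by −3.59 ± 0.46 and PSRC1, a spindle protein gene, by −3.16 ± 0.30. DEPDC1 (−2.74 ± 0.30), NEURL1B (−2.87 ± 0.31) and SAPCD2 (−2.86 ± 0.42, with 22.9% of exonic bases shared) were the other 3 of the 6 largest changes in this direction among genes with a mean log2 CPM of 1 or more over the 10 libraries at 15 and 24 h. PIF1, below that level, was also lower at 24 h than at 15 h in the test, with 12 counts over 3 palbociclib libraries and 11 over 3 DMSO libraries at 15 h. CDKN1B was at 0.07 ± 0.10 at 15 h, short of the threshold, and its change by 24 h was −0.998 ± 0.16. Its level with palbociclib was 19.1 ± 0.64 CPM at 24 h and 20.5 ± 1.0 CPM at 15 h, and with DMSO 36.2 ± 0.98 CPM at 24 h and 19.5 ± 2.4 CPM at 15 h.

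**Figure D3:**
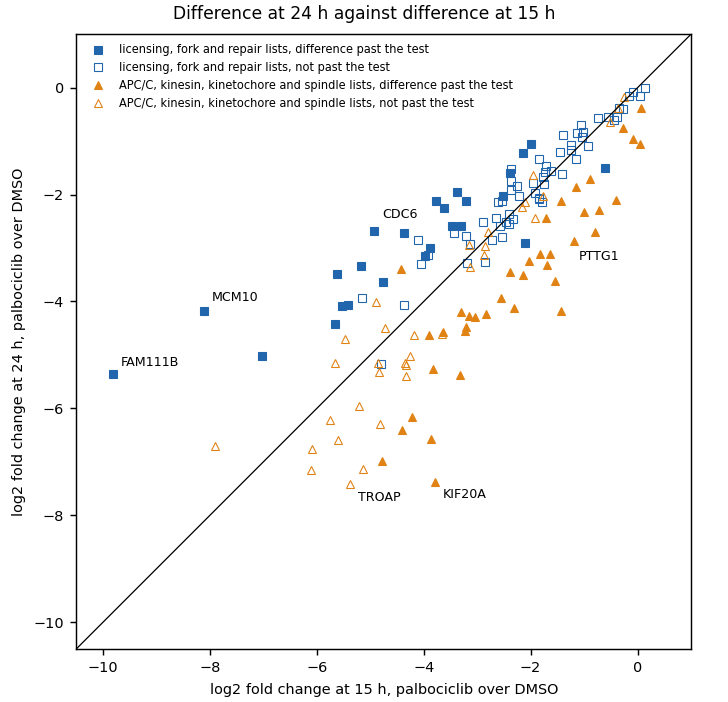
Log2 fold change at 24 h (vertical axis) against that at 15 h (horizontal axis), palbociclib over DMSO, for tested members of the licensing, fork and repair lists (blue squares) and of the APC/C, kinesin, kinetochore and spindle lists (orange triangles). Filled symbols passed the test of the difference between the times, and the line marks equal values. The filled squares lie mostly above the line, as CDC6 and MCM10 do, and the filled triangles mostly below it, as KIF20A does.

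**Figure D4:**
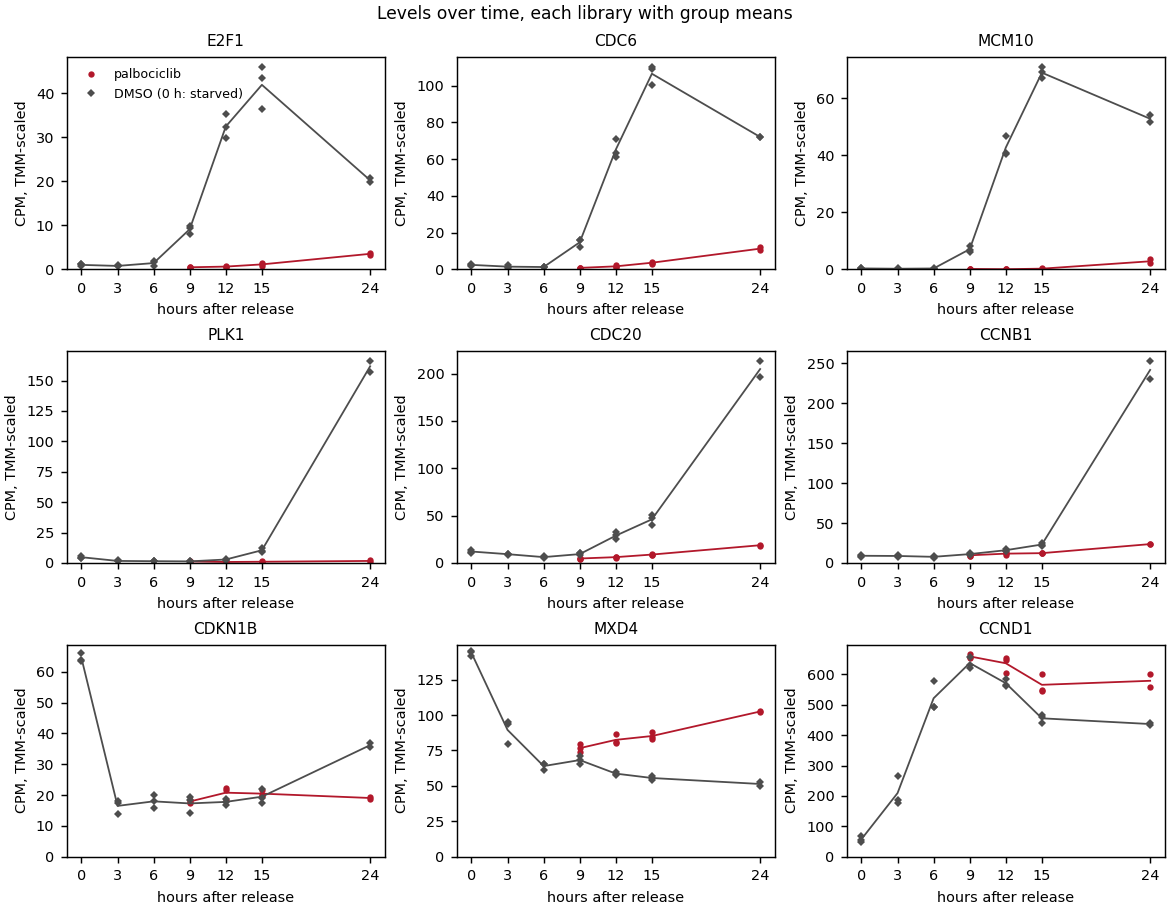
Levels of 9 genes over the series in TMM-scaled CPM on linear axes, with palbociclib libraries as red circles, DMSO libraries and the starved 0 h libraries as grey diamonds, and lines through group means of 3 libraries (2 at 24 h). Under palbociclib E2F1, CDC6 and MCM10 stay far below DMSO but are higher at 24 h than at 15 h, PLK1, CDC20 and CCNB1 have their widest gap in CPM at 24 h, with CDC20 apart from DMSO already at 9 h, CDKN1B is lower than DMSO at 24 h, and MXD4 and CCND1 are higher than DMSO at 24 h.

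Rises were more numerous than strong. The median of the 910 rises was 0.43, against −0.52 for the 1937 falls, and 70 of the 90 that reached 2-fold had a mean level below 1 on the log2 CPM scale over the 4 libraries. Among better expressed genes, WNT9A, which encodes a secreted WNT ligand (chromosome 1, 227918656 to 227947898), stood at 24.1 and 21.4 CPM with palbociclib, against 9.65 and 9.09 CPM with DMSO (1.28 ± 0.13). MYPN, which encodes a sarcomeric protein of muscle, stood at 6.53 and 7.28 CPM with palbociclib, against 3.26 and 2.43 CPM with DMSO (1.30 ± 0.19). SLC43A2, an amino acid transporter gene, stood at 18.7 and 18.9 CPM with palbociclib, against 10.1 and 7.40 CPM with DMSO (1.12 ± 0.16). The groups were apart for all 3, which the choice of these genes required. At 15 h neither WNT9A (0.04 ± 0.08) nor MYPN (−0.03 ± 0.14) was past the threshold. WNT9A changed by 1.23 ± 0.15 and MYPN by 1.33 ± 0.24 between the times. At 15 h WNT9A had stood at 40.1 ± 4.4 CPM with palbociclib and 38.7 ± 0.67 CPM with DMSO (n = 3 each), so its level at 24 h was lower in both groups. MYPN had then stood at 5.65 ± 0.34 CPM with palbociclib and 5.75 ± 0.29 CPM with DMSO (n = 3 each). Its DMSO level was thus lower at 24 h, and its palbociclib level somewhat higher. FYB, an adaptor gene best known in T cells, rose by 1.27 ± 0.24 and RNF207 by 1.22 ± 0.18. TNFSF14, which encodes the cytokine LIGHT, rose by 1.63 ± 0.35 and lost its call without DMSO replicate 3 (1.06). FAM227A rose by 1.28 ± 0.31 and BTBD19 by 1.13 ± 0.30, and both lost their calls without palbociclib replicate 1 (0.75 and 0.78) or DMSO replicate 3 (1.03 and 1.00).

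**Figure D5:**
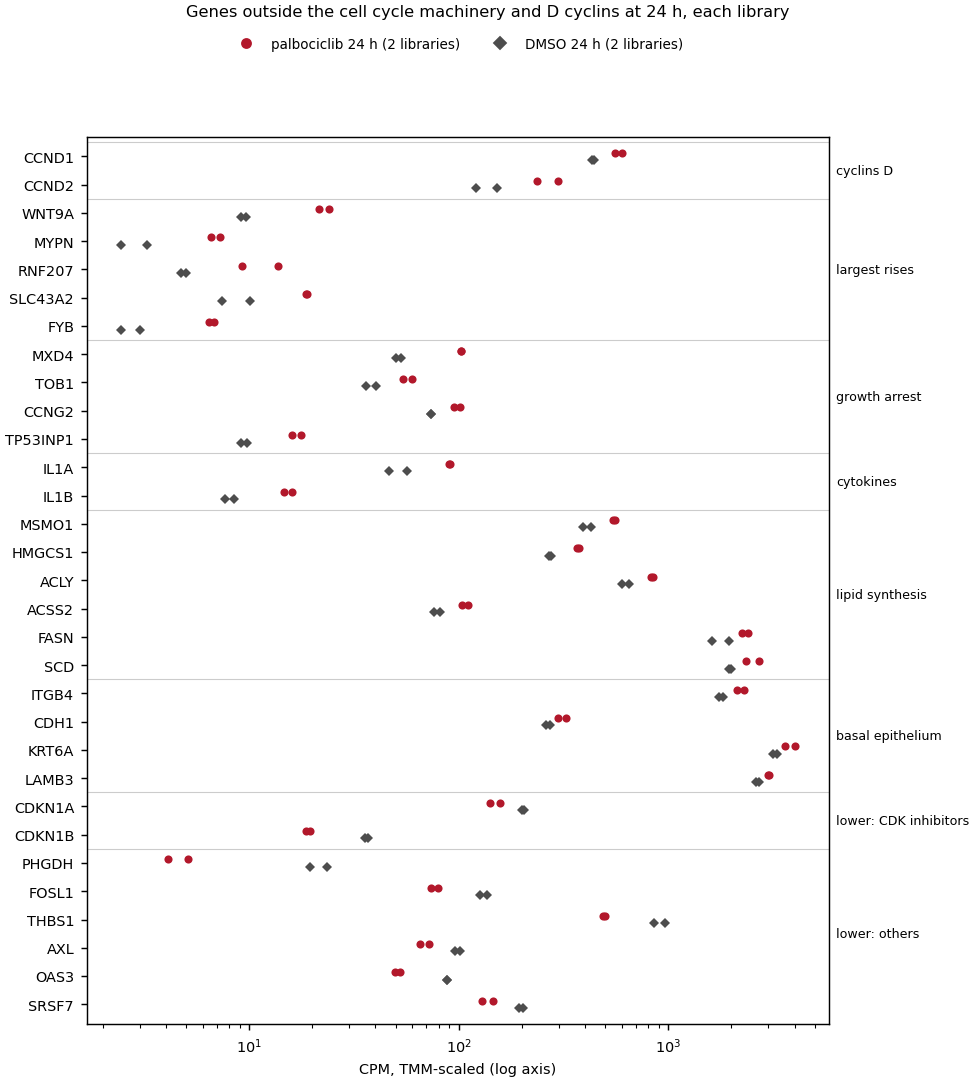
Levels at 24 h in each library, in TMM-scaled CPM on a log axis. Upper rows are D cyclins, the largest rises and growth arrest, cytokine, lipid and basal genes. Lower rows are the CDK inhibitor genes CDKN1A and CDKN1B and genes lower outside the cell cycle lists. Red circles are the 2 palbociclib libraries, drawn above the grey diamonds of the 2 DMSO libraries. Circles lie right of the diamonds in the upper 23 rows and left of them in the lower 8. Most gaps are narrower than those of most cell cycle genes. Exceptions include PHGDH (−2.22), wider than MCM2 (−2.12), and WNT9A (1.28), wider than CCNE1 (−0.93).

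Genes linked to growth arrest did not move as a group. Their counts stand beside 5.76% rises and 12.3% falls over all genes tested. Of 27 FoxO targets and quiescence genes, 4 rose and 1 fell (median 0.03). MXD4, which encodes a MAX partner opposed to MYC (chromosome 4, 2247432 to 2262294), stood at 102 and 103 CPM with palbociclib, against 52.8 and 49.9 CPM with DMSO (0.999 ± 0.07, adjusted p = 4.34e-13). CCNG2, which encodes cyclin G2, stood at 101 and 94.4 CPM with palbociclib, against 73.3 and 73.9 CPM with DMSO (0.41 ± 0.09). Both were above every DMSO library, while CDKN1B, also a FoxO target, was the list's fall. The difference for MXD4 widened by 0.38 ± 0.09 since 15 h, a call lost without palbociclib replicate 3 (0.35) or DMSO replicate 3 (0.34). TOB1, an antiproliferative gene with 11.1% of exonic bases shared, rose by 0.59 ± 0.15 and YPEL5 by 0.38 ± 0.09, and both lost their calls without palbociclib replicate 3 (0.49 and 0.29) or DMSO replicate 1 (0.49 and 0.27), which left 2 rises in the list. Of 26 p53 targets, 3 rose and 6 fell (median −0.13). TP53INP1, an autophagy and stress gene, stood at 17.6 and 15.9 CPM with palbociclib, against 9.09 and 9.78 CPM with DMSO (0.82 ± 0.19). DDB2, a DNA damage sensor gene, fell by 0.81 ± 0.10 and PPM1D, a phosphatase gene, by 0.66 ± 0.12. The 3 rises of the p53 list became 1 without palbociclib replicate 3 or DMSO replicate 1.

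A minority of lipid synthesis genes rose, where 5.76% of all genes tested rose and 12.3% fell. Of 24 sterol synthesis and uptake genes, 5 rose and none fell (median 0.14), and of 9 fatty acid genes, 4 rose and 1 fell (median 0.22). ACLY, which makes cytosolic acetyl-CoA, stood at 830 and 846 CPM with palbociclib, against 649 and 598 CPM with DMSO (0.43 ± 0.07). ACSS2, an acetyl-CoA synthetase gene, stood at 104 and 111 CPM with palbociclib, against 81.4 and 75.9 CPM with DMSO (0.45 ± 0.07). MSMO1, a sterol oxidase gene, stood at 555 and 546 CPM with palbociclib, against 427 and 391 CPM with DMSO (0.43 ± 0.07). These 3 were higher in every palbociclib library than in any DMSO library. HMGCS1, the synthase at the head of the sterol pathway, rose by 0.44 ± 0.10, with 15% of exonic bases shared. FASN, the fatty acid synthase, rose by 0.38 ± 0.09 and lost its call without DMSO replicate 3 (0.27). ACLY changed by 0.43 ± 0.09 since 15 h, lost without DMSO replicate 3 (0.37), and FASN by 0.41 ± 0.11, lost without palbociclib replicate 1 (0.36), palbociclib replicate 3 (0.44), DMSO replicate 3 (0.28) or with library totals as the only scaling (0.42). The 4 fatty acid rises became 2 without DMSO replicate 3, and the 5 sterol rises became 3 without either palbociclib library and 2 without DMSO replicate 3. The fatty acid fall, the elongase gene ELOVL5 (−0.25 ± 0.08), was lost without palbociclib replicate 1 (−0.18), DMSO replicate 1 (−0.28) or DMSO replicate 3 (−0.23).

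Signalling and cytokine lists were split, while over all genes tested 5.76% rose and 12.3% fell. Of 13 tested epithelial cytokine and NF-kB feedback genes, 2 rose and 1 fell (median 0.21). IL1A, which encodes interleukin 1 alpha, stood at 90.6 and 90.3 CPM with palbociclib, against 46.4 and 56.6 CPM with DMSO (0.81 ± 0.10). IL1B, which encodes interleukin 1 beta, stood at 14.7 and 15.9 CPM with palbociclib, against 7.63 and 8.46 CPM with DMSO (0.93 ± 0.19). Both interleukins were above DMSO in each library, and the change of IL1A since 15 h was 0.50 ± 0.12, a call lost without palbociclib replicate 1 (0.50), palbociclib replicate 3 (0.48) or DMSO replicate 1 (0.33). At 15 h IL1A had stood at 98.5 ± 7.9 CPM with palbociclib and 79.8 ± 5.9 CPM with DMSO (n = 3 each), so this change went with a lower DMSO level. BIRC3, a ubiquitin ligase gene and the fall of this list (−0.54 ± 0.14), lost its call without DMSO replicate 3 (−0.47), where the rises numbered 4. Of 20 ERK output genes and EGFR ligands, 3 rose and 4 fell (median 0.03). FOSL1, an AP-1 subunit gene, stood at 73.8 and 79.5 CPM with palbociclib, against 127 and 136 CPM with DMSO (−0.78 ± 0.09), and changed by −0.63 ± 0.11 since 15 h. ETV4 and ETV5, ETS factor genes, fell by 0.66 ± 0.12 and 0.63 ± 0.11, while DUSP4, a phosphatase gene of the same pathway, rose by 0.39 ± 0.08, as did PHLDA1, a gene of the same output with 16.5% of exonic bases shared (0.34 ± 0.07). EGR1 did not pass the test (0.12 ± 0.44), and its sign turned without palbociclib replicate 3 (−0.06) or DMSO replicate 1 (−0.08). The 30 interferon and antigen presentation genes had 1 fall and no rise (median −0.09), OAS3, an oligoadenylate synthetase gene (−0.79 ± 0.09). The falls numbered 2 without palbociclib replicate 3.

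Serine synthesis and other ATF4 targets were lower in part, where 12.3% of all genes tested fell. Of 22 ATF4 targets, 7 fell and none rose (median −0.20). PHGDH, the entry enzyme of serine synthesis (chromosome 1, 119659798 to 119744215), stood at 4.07 and 5.08 CPM with palbociclib, against 19.6 and 23.5 CPM with DMSO (−2.22 ± 0.15, adjusted p = 9.06e-14). At 15 h it had stood at 5.4 ± 0.42 CPM with palbociclib and 7.51 ± 0.65 CPM with DMSO (n = 3 each), so the change of −1.73 ± 0.20 since 15 h went with a higher DMSO level. PSAT1, the next enzyme, fell by 0.55 ± 0.11 and STC2, a secreted glycoprotein gene, by 0.75 ± 0.13. The 7 falls became 3 without DMSO replicate 3. Of 11 SR splicing factors and CLK kinases, 7 fell and none rose (median −0.31), 4 without palbociclib replicate 1 or DMSO replicate 3. SRSF6, a splicing factor gene, stood at 199.5 and 207 CPM with palbociclib, against 255 and 260 CPM with DMSO (−0.34 ± 0.06), and changed by −0.43 ± 0.08 since 15 h. Of 16 YAP and TGF-beta targets, 1 rose and 2 fell (median 0.10), near the shares of all genes tested (5.76% and 12.3%). THBS1, which encodes thrombospondin 1, stood at 489 and 498 CPM with palbociclib, against 960 and 858 CPM with DMSO (−0.88 ± 0.11), and changed by −0.67 ± 0.14. AXL, a receptor kinase gene, fell by 0.51 ± 0.07 and changed by −0.58 ± 0.10 since 15 h. F3, the tissue factor gene, was the rise (0.41 ± 0.07).

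Growth and metabolism lists stayed near the median of all genes, of which 5.76% rose and 12.3% fell. Of 36 ribosome biogenesis genes, 2 fell and none rose (median −0.04), FBL and NOP56, which encode proteins of the box C/D complex that modifies ribosomal RNA, at −0.39 ± 0.09 and −0.30 ± 0.09. That count became 0 without palbociclib replicate 1 or DMSO replicate 3 and 6 without palbociclib replicate 3. Without palbociclib replicate 1 the values were −0.31 and −0.22, and without DMSO replicate 3 −0.32 and −0.24. Of 16 glycolysis and hypoxia genes, 1 rose (median 0.02), VEGFA (0.26 ± 0.08), lost without palbociclib replicate 1 (0.22), palbociclib replicate 3 (0.27), DMSO replicate 1 (0.18), with no filter on low counts (0.24) or with exon length trends removed (0.23). Of 24 lysosome and autophagy genes, 4 rose and 2 fell (median 0.08), and the rises became 2 without palbociclib replicate 1, 1 without palbociclib replicate 3 and 0 without DMSO replicate 1, while the falls became 0 without palbociclib replicate 1 and 1 without either DMSO library. Of 13 matrix protease and plasminogen genes, 2 fell (median −0.10), PLAU, which encodes urokinase (−0.34 ± 0.09, with 31.1% of exonic bases shared), and its receptor gene PLAUR (−0.29 ± 0.09). None did without palbociclib replicate 1 or DMSO replicate 3, and 1 did without DMSO replicate 1.

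Markers of the cell type were checked in the same libraries, where 5.76% of all genes tested rose and 12.3% fell. All 14 basal epithelial markers were expressed, and their summed level was 31320 and 33950 CPM with palbociclib, against 28780 and 29710 CPM with DMSO. KRT5, a basal keratin gene, stood at 2614 and 3100 CPM with palbociclib, against 2480 and 2655 CPM with DMSO. ITGB4, the hemidesmosome integrin gene, stood at 2127 and 2307 CPM with palbociclib, against 1747 and 1824 CPM with DMSO (0.31 ± 0.06). In the basal list 4 rose and none fell (median 0.17), 1 without palbociclib replicate 3 or DMSO replicate 3 and 0 without DMSO replicate 1, where ITGB4 gave 0.26. Squamous markers had 1 rise of 16 tested (median −0.02), TGM1, the transglutaminase gene (0.45 ± 0.13), lost without palbociclib replicate 3 (0.31) or DMSO replicate 1 (0.38). The summed squamous level was 145 and 169 CPM with palbociclib, against 137 and 157 CPM with DMSO. Luminal markers had 2 rises of 7 tested (median 0.25), neither of them kept whichever of the 4 libraries was left out, and summed to 3045 and 3184 CPM with palbociclib, against 2664 and 2699 CPM with DMSO. Of the defining luminal genes PGR had 0 counts in all 4 libraries, and ESR1 stood at 1.61 and 2.13 CPM with palbociclib, against 1.04 and 1.16 CPM with DMSO. Mesenchymal markers had 2 falls of 9 tested (median −0.07) and summed to 1803 and 1904 CPM with palbociclib, against 2037 and 1996 CPM with DMSO. CDH2, the N-cadherin gene, fell by 0.57 ± 0.14 and TWIST1 by 0.47 ± 0.14, the second lost without palbociclib replicate 1 (−0.41), DMSO replicate 1 (−0.45) or DMSO replicate 3 (−0.50). Blood and endothelial markers had no call among 3 tested and summed to 8.52 to 10.5 CPM with palbociclib, against 9.89 to 10.96 CPM with DMSO, with PTPRC, CD3E, CD68 and VWF at 0 in all 4 libraries. The part of these marker differences in the other results was not tested.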

How the data were processed

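Libraries came from a stranded poly(A) kit and 75 nt single reads, per the labels' protocols. The submitters' processing notes list FastQC 0.11.3, TopHat2 2.1.1, Bowtie2 2.2.9, Subread 1.5.1 and GRCh38.p7. Per the file headers, the authors ran featureCounts 1.5.1 over GENCODE 25 exons with no strand option and deposited whole-number read counts that are not normalized. Genes overlapping on opposite strands therefore cannot be told apart, and shared exonic bases are given where they reach 10%. The joint table's 31 columns were not used, because some of its gene names had become dates.

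The counts were fitted in R 4.3.3 with edgeR 4.0.16, using TMM factors, filterByExpr by group and 1 quasi-likelihood model of all 31 libraries with 20 residual degrees of freedom. Benjamini-Hochberg adjustment covered 15787 genes, and the common biological coefficient of variation was 6.55%. Each SE was obtained by dividing the size of the log2 fold change by the root of its F statistic. The edgeR step was tested on simulated data. Replicates 1 and 3 differed by more than sampling noise (chi-square over degrees of freedom 8.83 for palbociclib and 8.24 for DMSO). Ratio intervals cover counting error only.

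The 34 gene lists, the named genes and the motif letters were chosen with earlier results of these data known. Names came from a panel of cell cycle genes and the 10 largest rises and falls. Those rises and falls were taken among called genes averaging 1 or more in log2 CPM whose groups did not overlap. Added to these were at most 4 called genes for each list and direction, ranked by p. The 6 largest changes each way between 24 h and 15 h above the same level were also named. CDK4, CDK6, CCND3, RBL2, CDKN1C, CDKN2D, ATR, POLD2, the ORC and E2F genes short of the threshold and the uncalled marker genes were named after their values were seen. Alternatives covered scaling, filter, tool, libraries fitted, replicate number, single libraries and exon length.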

Additional observations from a re-analysis of the deposited data

Results flagged for a closer look

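The difference between palbociclib and DMSO was not the same at 24 h and at 15 h for 470 genes by an interaction test in edgeR over 15787 genes, 167 with a higher and 303 with a lower log2 value at 24 h. The 2 times share no library. Positive changes in genes that were lower at both times were 2.74 for E2F1, 2.23 for CDC6, 3.94 for MCM10, 4.47 for FAM111B, 2.14 for DTL, 2.01 for EXO1, 1.10 for MCM2 and 1.197 for CCNE1. Negative changes in genes of mitosis were −3.59 for KIF20A, −3.27 for PLK1, −3.16 for PSRC1, −2.74 for DEPDC1 and −2.44 for CCNB1. NEURL1B and SAPCD2 had −2.87 and −2.86. PIF1 was also called lower, but it had 2 counts in all with palbociclib at 24 h and 11 with DMSO at 15 h, so no fitted value is given. CDKN1B, a CDK inhibitor gene of the cell cycle lists, had −0.998. Outside those lists PHGDH had −1.73, FOSL1 −0.63, THBS1 −0.67, AXL −0.58 and SRSF6 −0.43. Genes higher with palbociclib at 24 h had positive changes of 1.23 for WNT9A, 1.33 for MYPN, 0.50 for IL1A, 0.43 for ACLY, 0.41 for FASN and 0.38 for MXD4. The calls of IL1A, ACLY, FASN and MXD4 were each lost without at least 1 of the 4 libraries at 24 h.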

How the results depend on the processing

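The count of 251 cell cycle genes that fell and the 508 genes that fell by at least 2-fold stayed within 1.5 times under every alternative run. Leaving out 1 library at a time gave 479 to 664 rises, 30 to 217 rises of at least 2-fold, 67 to 140 genes with a higher and 184 to 287 with a lower value at 24 h than at 15 h, and 24 to 60 with a value higher by at least 2-fold, against 43 with all libraries. For EGR1, which was not called, the range was −0.077 to 0.332, with −0.063 without palbociclib replicate 3. Without replicate 1 of both groups there were 320 rises, 1039 falls and 26 rises of at least 2-fold, and 41 higher, 140 lower and 22 higher by at least 2-fold between the times, where the change of EXO1 was 1.66 and lost its call. Without replicate 3 of both groups there were 293 rises and 1254 falls, and 66 higher and 188 lower between the times. In both settings 1 library a side was assumed to vary like the other groups. The 4 libraries fitted alone gave 29 rises of at least 2-fold, and the 10 libraries at 15 and 24 h alone gave 106 higher between the times and 27 by at least 2-fold. The causes were not tested, beyond there being fewer samples in these fits.

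The labels tie same-numbered libraries by their number alone. The differences of replicate 1 minus 3 correlated between palbociclib and DMSO with r = 0.297 across all genes tested and 0.451 for 9630 genes averaging over 3 in log2 CPM. Genes are not independent replicates, and the 2 pairs are too few to show pairing. With a replicate block at 24 h there were 929 rises and 1963 falls, with LAMB3 and MUC1 losing their calls, and with a replicate block over all 31 libraries 1099 and 2145. DESeq2 gave 909 and 1779, with 2143 genes given no adjusted p. Scaling by library totals alone gave 1251 and 1782. Replicates 1 and 3 differed with exon length (Spearman 0.337 for palbociclib and 0.218 for DMSO, across genes), whereas the palbociclib difference hardly did (0.018), and removing that trend gave 1115 and 1911. With no filter on low counts 14 of 154 named genes lost their calls, and with the 4 libraries alone 12. Leaving out 1 library ended 22 to 28 of these calls, leaving out replicate 1 of both groups 40, and replicate 3 of both groups 36.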
